A study of Arabidopsis thaliana with 6 samples.

Results

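The superoxide dismutases (SODs) of Arabidopsis thaliana and the chaperone that loads copper into some of them were followed in whole leaves grown at low or normal CO2. The genes were taken by locus and were the Cu/Zn enzymes CSD1, CSD2 and CSD3, the Fe enzymes FSD1, FSD2 and FSD3, the Mn enzyme MSD1 and the copper chaperone CCS. Of these 8 genes, 6 were among the 26402 loci of the deposited table and are described here. For FSD3 and CCS no level is given here, and only their reference sequences were used. The rule is a list of loci, which was drawn up with earlier results of these data known.

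The low CO2 group was grown at 100 ppm CO2 and the normal CO2 group at 380 ppm, with 3 samples in each. All were wild-type Col-0 (ecotype Columbia), grown in soil at 21 °C, with 16 h of light and 8 h of darkness a day and a relative humidity of 70%, and sampled after 4 weeks. The table gave 1 value per gene and CO2 level, in RPKM (reads scaled to gene model length and to depth). No value was labelled with a replicate. Without replicate values the CO2 effect could not be tested, and no difference below has been checked against the spread between plants. The whole reads behind the RPKM values were recovered, with a depth of 21887516 reads at low CO2 and 25429325 reads at normal CO2, and all 6 genes gave whole reads in both columns. Bracketed ranges are 95% intervals that cover counting error only. All 5 leaf mesophyll markers were well above 1 RPKM, with a summed level of 40964 RPKM at low CO2 and 23775 RPKM at normal CO2, of which RBCS1A alone gave 24999 RPKM at low CO2 and 10462 RPKM at normal CO2. Of those 5, 4 were higher at low CO2 and LHCB1.2 was lower, at 1165 RPKM at low CO2 and 1205 RPKM at normal CO2. Among the higher ones LHCA1 and RCA differed little. LHCA1 stood at 2825 RPKM at low CO2 and 2801 RPKM at normal CO2, and RCA at 7210 and 6572 RPKM. All 4 root hair markers were listed at 0 in both columns. The 3 guard cell markers were all higher at low CO2, with a sum of 247 RPKM there and 131 RPKM at normal CO2. Both phloem markers were lower, with a sum of 554 RPKM at low CO2 and 642 RPKM at normal CO2, as were both pollen markers, with 0.591 RPKM at low CO2 and 7.94 RPKM at normal CO2. Of the epidermis markers 1 was higher and 1 lower, with a sum of 143 RPKM at low CO2 and 109.9 RPKM at normal CO2. In whole leaves, fewer cells of a type and less RNA per cell cannot be told apart, and the part of these markers in the differences below was not tested.

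Superoxide forms where electrons leak to oxygen, in leaves chiefly at photosystem I and in mitochondria, and SODs turn it into hydrogen peroxide and oxygen. In Arabidopsis CSD1 works in the cytosol, CSD2 in the chloroplast and CSD3 in peroxisomes, while FSD2 and FSD3 sit with plastid nucleoids, FSD1 is the abundant Fe enzyme of the chloroplast stroma, found outside it as well, and MSD1 works in mitochondria. The Cu/Zn and Fe enzymes are known to replace each other with copper supply: when copper is scarce the transcription factor SPL7, which binds GTAC cores, raises FSD1 and the microRNA miR398, and miR398 lowers the mRNAs of CSD1, CSD2 and CCS.

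Sequences of that known switch are shown because FSD1 and CSD2 had the most opposed ratios of the family, so they were chosen with those ratios known. CSD1, also a target of miR398, had a ratio of 0.780, against 1.57 for CSD2. The part of copper supply or of the switch in these ratios was not tested. The mature 3p strands of miR398 are given from RefSeq (TAIR10.1, plus strand of each gene) in DNA letters, with the seed (bases 2 to 8) in capitals. All of them share 1 seed, and miR398b and miR398c are identical. Coordinates here and below are those of the reference, since the table has none.
miR398a-3p, chr2:1041012-1041032: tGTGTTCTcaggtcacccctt
miR398b-3p, chr5:4691107-4691127: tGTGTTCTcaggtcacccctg
miR398c-3p, chr5:4694778-4694798: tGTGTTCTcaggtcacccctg

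The best match to miR398b was searched in the longest mRNA of each gene, allowing 1 unpaired target base. In the sites below, capitals mark target bases that form Watson-Crick pairs with it. The CSD1 site lies in the 5' UTR across a splice junction, the CSD2 and CCS sites lie in coding exons, and that of AT3G15640, an annotated cytochrome c oxidase subunit Vb gene shown for comparison, lies in the 5' UTR.
CSD1, chr1:2827177-2827685, plus strand, with an intron between its parts: aAGGGGTttCCTGAGAtCACA
CSD2, chr2:12015572-12015593, plus strand: tgcGGGTGACCTGgGAAaCAtA
CCS, chr1:4267521-4267542, minus strand: CAttGGGaGACCTGgGAACACt
AT3G15640, chr3:5299204-5299225, plus strand: aAGGtGTGACCTGAGAAtCACA

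CSD1 paired at 17 of 21 miRNA bases with 4 mismatches, and CSD2 at 16 with 4 G:U pairs, 1 mismatch and an unpaired target base between miRNA bases 4 and 5. A match as good as these was found in 0.138% of 27562 genes with a coding mRNA. CCS paired at 17 bases, a match reached by 0.0327% of genes, and AT3G15640 at 19 bases. The best match in FSD1 was reached by 10.6% of genes, in FSD2 by 4.79%, in CSD3 by 16.9%, in FSD3 by 43.3% and in MSD1 by 75.3%. CSD1 has 2 annotated coding mRNAs, and the one with the other splice acceptor holds only a broken form of its site, reached by 16.9% of genes:
CSD1, other mRNA, chr1:2827177-2827694, plus strand, with an intron between its parts: aAGGGGTttCCTGAGgcCAag
Both mRNAs hold the same coding length, by which the RPKM values were scaled, so 1 value stands for both. The miR398 genes were not analysed here.

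FSD1 (AT4G25100) had the largest difference of the family. It stood at 310.3 RPKM at low CO2 (301 to 319.7, from 4320 reads), against 748 RPKM at normal CO2 (735 to 762, from 12103 reads). It was the most abundant SOD transcript at normal CO2 and stood behind CSD2 and CSD1 at low CO2. The level at low CO2 was 2.41-fold lower (2.33 to 2.50), and FSD1 had rank 500 among all listed loci there and rank 164 at normal CO2. On the log2(RPKM + 1) scale its ratio was -1.27, and 1323 of 16563 counted genes, those with a mean of at least 1 RPKM, had a ratio as low or lower (7.99%).

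FSD2 (AT5G51100), the scarce Fe enzyme of the plastid nucleoid, stood at 7.94 RPKM at low CO2 (6.75 to 9.27, from 159 reads), against 11.3 RPKM at normal CO2 (9.94 to 12.7, from 262 reads). Its ratio of low to normal CO2 was 0.705 (0.575 to 0.862), within 2-fold. The level of FSD2 was 0.0256 of that of FSD1 at low CO2 (0.0217 to 0.0300) and 0.0150 at normal CO2 (0.0133 to 0.0170). FSD1 thus made up nearly all of the Fe SOD transcript measured in both columns, and the summed level of both genes was 318 RPKM at low CO2, against 759.6 RPKM at normal CO2.

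CSD2 (AT2G28190), the chloroplast Cu/Zn enzyme, lay on the other side. It stood at 401 RPKM at low CO2 (390.3 to 411, from 5683 reads), against 255 RPKM at normal CO2 (247 to 263, from 4201 reads). The ratio was 1.57 (1.51 to 1.64), higher at low CO2 but within 2-fold. A log2 ratio as high or higher than its 0.65 was found for 1988 counted genes (12.0%). CSD2 was the most abundant SOD transcript at low CO2 and stood behind FSD1 and CSD1 at normal CO2.

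CSD1 (AT1G08830), the cytosolic Cu/Zn enzyme, went the other way from CSD2. It stood at 379 RPKM at low CO2 (367 to 391, from 3778 reads), against 485 RPKM at normal CO2 (473 to 498, from 5626 reads), a ratio of 0.780 (0.748 to 0.813). Both Cu/Zn genes lay within 2-fold, but their ratios parted: the level of CSD2 relative to CSD1 was 1.06 at low CO2 (1.02 to 1.10) and 0.525 at normal CO2 (0.505 to 0.547), a 2.01-fold difference (1.90 to 2.13). The gene of CSD1 overlaps AT1G08840 on the opposite strand outside its coding bases.

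CSD3 (AT5G18100), the peroxisomal enzyme, was barely detected. It had 3 reads at low CO2 and 1 read at normal CO2, or 0.279 and 0.0799 RPKM, at or under the floor of 3 reads in both columns, so no fold is given. It did not reach a mean of 1 RPKM and was not counted. An antisense transcript and a neighbouring gene overlap 46 of its coding bases in the reference, and the use of strand in counting was not given in the sources used here.

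MSD1 (AT3G10920), the mitochondrial Mn enzyme, was at the same level in both columns within counting error. It stood at 229 RPKM at low CO2 (221 to 236, from 3467 reads) and 229 RPKM at normal CO2 (222 to 236, from 4041 reads), a ratio of 0.997 (0.952 to 1.04). A further locus annotated as an iron/manganese SOD family protein, AT3G56350, was listed at 0 in both columns.

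**Figure D1:**
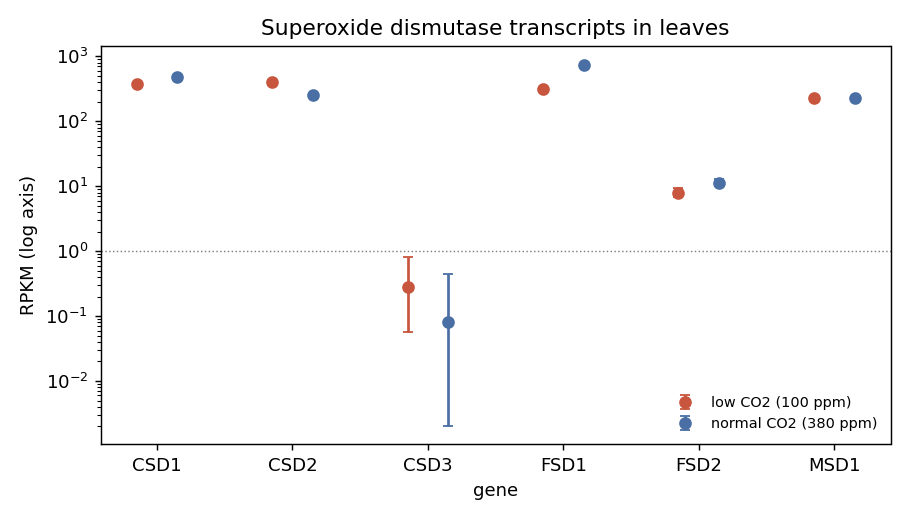
Level of each measured SOD gene in RPKM (log axis) in leaves at low CO2 (red, left) and normal CO2 (blue, right), 1 deposited value per CO2 level. Bars are 95% Poisson intervals of the reads and cover counting error only, and the dotted line marks 1 RPKM. FSD1 is the highest point at normal CO2 (748 RPKM) and CSD2 at low CO2 (401 RPKM), while CSD3 lies below 1 RPKM in both.

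The order of levels differed between the columns. At low CO2 it ran CSD2, CSD1, FSD1, MSD1, FSD2, and at normal CO2 FSD1, CSD1, CSD2, MSD1, FSD2. The closest neighbours were CSD2 and CSD1 at low CO2, 1.06-fold apart (1.02 to 1.10), and CSD2 and MSD1 at normal CO2, 1.11-fold apart (1.06 to 1.16). Those gaps are larger than counting error, and their size against the spread between plants is unknown. MSD1 stood 28.8-fold above FSD2 at low CO2 (24.6 to 34.0) and 20.4-fold above it at normal CO2 (18.0 to 23.2).

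Among the 5 counted SOD genes 1, FSD1, was at least 2-fold lower at low CO2 on the log2(RPKM + 1) scale, where 11.1% of all counted genes were. None was at least 2-fold higher, where 6.07% of all counted genes were, and 4 lay within 2-fold, as 82.9% of all did. The median log2 ratio was -0.36 for the SOD genes and -0.06 for all counted genes. With 5 genes, 1 call is near the share of the background, and the count shows nothing particular to the family.

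**Figure D2:**
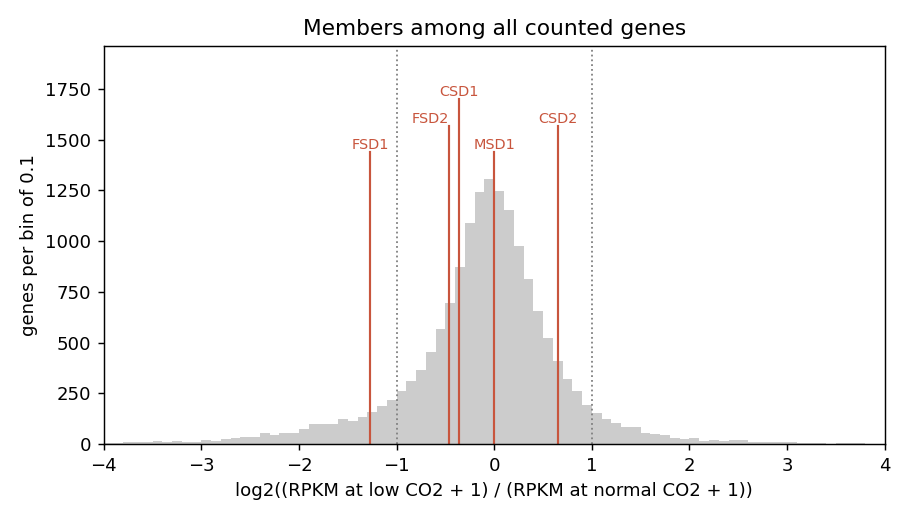
Distribution of the log2 ratio of low to normal CO2 on the RPKM + 1 scale over 16563 counted genes (grey bars, genes per bin of 0.1), with the 5 counted SOD genes as red lines and 2-fold as dotted lines. FSD1 lies at -1.27, CSD2 at 0.65 and the others between -0.46 and 0.00.

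The makeup of the family by metal differed between the columns. The Cu/Zn genes made up 58.8% of the summed SOD level at low CO2 and 42.8% at normal CO2, the Fe genes 24.0% at low CO2 and 43.9% at normal CO2, and MSD1 17.2% at low CO2 and 13.3% at normal CO2. In absolute level the Cu/Zn sum was nearly the same, at 779 RPKM at low CO2 and 740.2 RPKM at normal CO2, a ratio of 1.05 (1.02 to 1.08), with CSD2 higher and CSD1 lower. The Fe sum was 2.39-fold lower at low CO2 (2.31 to 2.47). All 6 genes together stood at 1326 RPKM at low CO2, against 1729 RPKM at normal CO2, 1.30-fold lower (1.28 to 1.33). FSD3 is not in these sums.

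**Figure D3:**
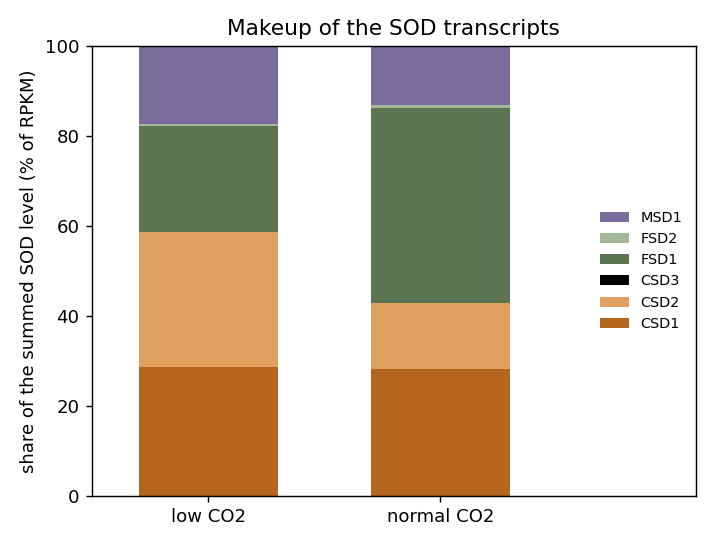
Share of each gene in the summed RPKM of the 6 measured SOD genes (stacked, percent) at low CO2 (left) and normal CO2 (right). FSD1 takes 23.4% at low CO2 and 43.3% at normal CO2, CSD2 30.2% at low CO2 and 14.7% at normal CO2, and CSD1 28.5% at low CO2 and 28.1% at normal CO2, while CSD3 is too small to be seen.

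CSD2 and FSD1, both enzymes of the chloroplast, differed most from each other in ratio. The level of CSD2 relative to FSD1 was 1.29 at low CO2 (1.24 to 1.34) and 0.341 at normal CO2 (0.329 to 0.353), a 3.79-fold difference (3.59 to 4.00). For CSD1 relative to FSD1 the level ratio was 1.22 at low CO2 and 0.648 at normal CO2, a 1.88-fold difference (1.78 to 1.99), and for MSD1 relative to FSD1 a 2.40-fold difference (2.27 to 2.55). A ratio of levels within a column does not depend on the depth scaling. Over 28 pairs of the 8 coding sequences the longest identical run was 26 bases, between FSD1 and FSD2, and 17 bases between CSD1 and CSD2.

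The promoters of this pair are shown as the 250 bases before the annotated gene start (RefSeq, TAIR10.1), with GTAC, which reads the same on both strands, in capitals.
FSD1, chr4:12887012-12887261, minus strand: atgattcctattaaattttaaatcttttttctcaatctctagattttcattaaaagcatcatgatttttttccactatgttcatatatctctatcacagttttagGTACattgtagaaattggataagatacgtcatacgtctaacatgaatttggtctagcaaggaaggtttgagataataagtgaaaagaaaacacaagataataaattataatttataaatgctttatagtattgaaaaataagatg
CSD2, chr2:12014162-12014411, plus strand: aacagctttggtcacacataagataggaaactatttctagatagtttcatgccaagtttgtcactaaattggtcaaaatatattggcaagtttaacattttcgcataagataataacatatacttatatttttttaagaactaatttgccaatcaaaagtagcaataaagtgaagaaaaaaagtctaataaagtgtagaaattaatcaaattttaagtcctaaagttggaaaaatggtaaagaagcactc

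FSD1 had 1 GTAC, at base -145 from the gene start, and CSD2 had none. Of 27561 promoters of this length 34.3% held at least 1 GTAC and 7.68% at least 2. CSD1 held 2, side by side at bases -11 and -7, and CCS and CSD3 held 1 each. FSD2, FSD3 and MSD1 held none. The motif is short and common, and a match is a description of these letters only.

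Among the other genes of copper transport and regulation, SPL7 (AT5G18830), the regulator named above, stood at 12.8 RPKM at low CO2 and 16.1 RPKM at normal CO2, a ratio of 0.793 (0.718 to 0.875). The list had 14 counted genes, with 2 past 2-fold upward at low CO2, 2 past it downward and 10 between, and its median log2 ratio was -0.31, beside -0.06 over all counted genes. Over all counted genes 6.07% were past 2-fold upward and 11.1% downward, and with 14 genes a count of 2 each way is near those shares. The lower ones were COPT2 (AT3G46900), a high-affinity copper transporter, and YSL2 (AT5G24380), a metal-nicotianamine transporter. COPT2 stood at 8.29 RPKM at low CO2 and 23.3 RPKM at normal CO2, 2.81-fold lower (2.20 to 3.62), and YSL2 at 4.31 RPKM at low CO2 and 11.4 RPKM at normal CO2, 2.64-fold lower (2.23 to 3.13).

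The higher ones were PAA2 (AT5G21930), the copper ATPase of the thylakoid that supplies plastocyanin, and COPT6 (AT2G26975), a copper transporter family gene named after its values were seen. PAA2 stood at 60.8 RPKM at low CO2 and 25.5 RPKM at normal CO2, 2.39-fold higher (2.25 to 2.53), and COPT6 was 2.16-fold higher (1.98 to 2.37). The COPT genes thus went both ways. COPT1 had a ratio of 1.86 (1.72 to 2.01) and COPT5 of 0.738 (0.683 to 0.798). Both lay within 2-fold and were named after their values were seen. CCH (AT3G56240), a cytosolic copper chaperone and the most abundant gene of the list, was at 1126 RPKM at low CO2 and 1490 RPKM at normal CO2, a ratio of 0.756 (0.736 to 0.777).

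Genes for other copper proteins and miR398 targets went both ways, with 1 of 8 counted genes past 2-fold upward at low CO2, 1 past it downward and a median log2 ratio of -0.08 (-0.06 over all counted genes). With 8 genes, 1 each way is near the 6.07% upward and 11.1% downward of all counted genes. The plastocyanin gene PETE2 (AT1G20340, DRT112 in the reference), which carries electrons to photosystem I and is the main copper protein of the chloroplast, stood at 3682 RPKM at low CO2 and 1548 RPKM at normal CO2, 2.38-fold higher (2.34 to 2.42). It lay within 2-fold after quantile normalization. PETE1 (AT1G76100), the other plastocyanin gene, had a ratio of 1.88 (1.78 to 1.99). AT3G15640, whose miR398 site is printed above, was at 182 RPKM at low CO2 and 119 RPKM at normal CO2, a ratio of 1.53 (1.43 to 1.63), beside 1.57 for CSD2 and 0.780 for CSD1. The blue copper protein gene BCB (AT5G20230) had a ratio of 0.700 (0.674 to 0.728). The best miR398b match in BCB lay in its 5' UTR and was reached by 16.9% of genes. Plantacyanin (ARPN, AT2G02850) was 4.99-fold lower (1.91 to 16.5), from 5 reads at low CO2 and 29 at normal CO2. It is the 1 lower gene of this list and reached the mean of 1 RPKM only through the normal CO2 column, so it had to differ. Among the 7 genes at 1 RPKM or more in both columns, none lay past 2-fold downward, beside 9.56% of all such genes. With 7 genes, none is near that share.

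The 2 counted genes for factors that activate SODs lay within 2-fold, as 82.9% of all counted genes did. No level is given for the copper chaperone CCS. CPN20 (AT5G20720), a chloroplast co-chaperonin known to activate FSD1, stood at 118 RPKM at low CO2 and 102 RPKM at normal CO2, a ratio of 1.16 (1.09 to 1.24). MTM1 (AT4G27940), a mitochondrial carrier linked to the manganese loading of MSD1, stood at 6.12 RPKM at low CO2 and 10.8 RPKM at normal CO2, a ratio of 0.566 (0.467 to 0.683).

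Iron genes are given because Fe SODs need iron. Iron transport, storage and regulation had 16 counted genes, of which 3 lay past 2-fold upward at low CO2, 1 past it downward and 12 between, and the median log2 ratio was 0.29, beside -0.06 over all counted genes, of which 6.07% were past 2-fold upward and 11.1% downward. The lower gene was FER1 (AT5G01600), a plastid ferritin that stores iron and is known to rise with iron supply, at 55.0 RPKM at low CO2, against 424 RPKM at normal CO2, 7.71-fold lower (7.20 to 8.26). The ferritin genes FER3 and FER4, named after their values were seen, had ratios of 1.01 (0.884 to 1.16) and 0.885 (0.777 to 1.01). OPT3 (AT4G16370), a phloem transporter that carries iron and copper, was 2.37-fold higher (2.28 to 2.47). BHLH101 (AT5G04150), a transcription factor of iron deficiency, had 34 reads at low CO2 and 3 at normal CO2, a ratio of 13.2 (4.14 to 67.0). It reached the mean of 1 RPKM only through the low CO2 column, so it had to differ, and without it 2 of the 15 genes at 1 RPKM or more in both columns lay past 2-fold upward, beside 5.68% of all such genes. BTS (AT3G18290), an iron-binding ligase named after its values were seen, was 2.13-fold higher (2.03 to 2.24). Lower at low CO2 were FRO2, at a ratio of 0.493 (0.395 to 0.612), and NRAMP4, at 0.537 (0.487 to 0.592). Both lay within 2-fold on the log2(RPKM + 1) scale and were named after their values were seen. IRT1 was listed at 0 in both columns, and BHLH038 and BHLH039 had 1 read each at low CO2 and 0 at normal CO2.

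Superoxide is also made on purpose by NADPH oxidases at the plasma membrane, of which 2 of 10 genes were counted. RBOHD (AT5G47910), the main oxidase of leaves, stood at 40.2 RPKM at low CO2, against 123 RPKM at normal CO2, 3.05-fold lower (2.91 to 3.19). RBOHF (AT1G64060), named after its values were seen, lay within 2-fold at a ratio of 0.520 (0.464 to 0.583). Of 12 counted genes that remove the peroxide SODs make, 3 lay past 2-fold upward at low CO2 and none downward, with a median log2 ratio of 0.18 (6.07% upward, 11.1% downward and a median of -0.06 over all counted genes). The catalase gene CAT1 (AT1G20630), the most abundant of the list, stood at 1620 RPKM at low CO2 and 2980 RPKM at normal CO2, a ratio of 0.544 (0.538 to 0.549). CAT2 (AT4G35090) had a ratio of 0.528 (0.519 to 0.537), the cytosolic ascorbate peroxidase gene APX1 (AT1G07890) 0.511 (0.498 to 0.524) and the glutathione reductase gene GR1 (AT3G24170) 0.514 (0.492 to 0.537), all 4 named after their values were seen. After quantile normalization CAT1, CAT2 and APX1 lay past 2-fold downward, at log2 ratios of -1.16, -1.03 and -1.03. The genes past 2-fold upward were the monodehydroascorbate reductase gene MDAR6 (AT1G63940), 4.02-fold higher (3.65 to 4.43), the chloroplast peroxiredoxin gene PRXQ (AT3G26060), 2.71-fold higher (2.57 to 2.86), and the thylakoid ascorbate peroxidase gene TAPX (AT1G77490), at 101 RPKM at low CO2 and 45.3 RPKM at normal CO2 and 2.23-fold higher (2.09 to 2.37).

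**Figure D4:**
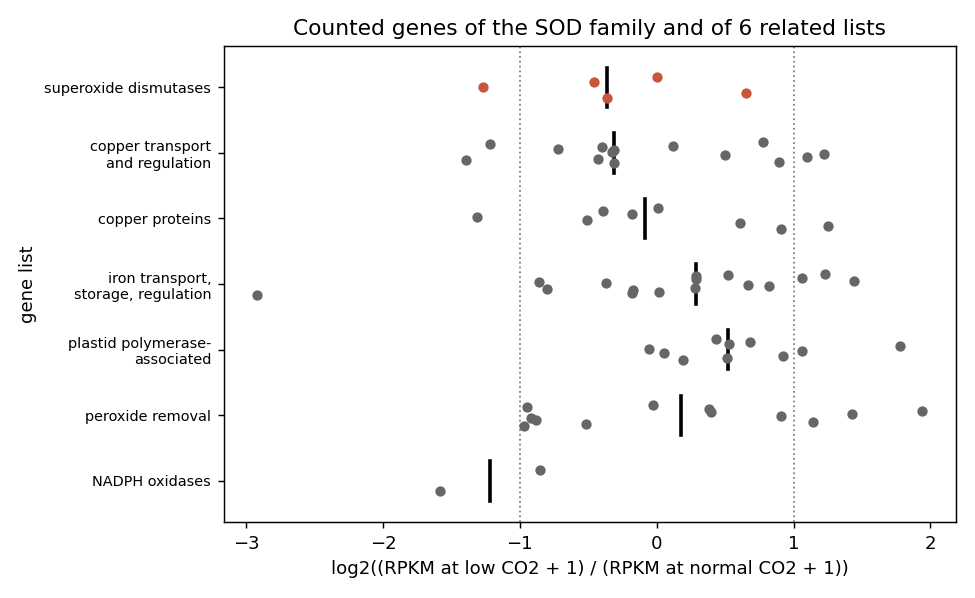
Log2 ratio of low to normal CO2 on the RPKM + 1 scale for each counted gene (points) of the SOD family and of 6 related lists, with list medians as black lines and 2-fold as dotted lines. FER1 lies farthest out at -2.92, and the SOD genes run from -1.27 (FSD1) to 0.65 (CSD2).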

How the data were processed

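RNA sequencing of whole leaves was deposited as RPKM values made by the authors, 1 column per CO2 level. FastQC, TopHat and Cufflinks were used, per the submitters' processing notes, which give no versions, and the extract protocol in the labels names a PureLink kit for RNA and the Illumina TruSeq kit for libraries. Whether and how replicates were pooled, how strand was used and which genome build and annotation served are not given in the sources used here.

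Reads were recovered as RPKM × coding length × depth, with the coding length less the 3 stop codon bases (RefSeq, TAIR10.1). Among the 21010 loci not at 0 in both columns, whole reads within 0.0001 came back for 20247 (96.4%), against 1.47% with the stop codon kept. For a gene with several coding lengths, the first that gave whole reads was used, the longest tried first. Ratio intervals are exact Clopper-Pearson intervals of the low CO2 share of reads. Those of sums, and of differences between level ratios, use a normal approximation on the log scale. At 1 kb the floor of 3 reads is worth 0.137 RPKM at low CO2 and 0.118 RPKM at normal CO2. A gene was counted if its mean reached 1 RPKM, and 2-fold on log2(RPKM + 1) was the size rule, which understates differences of low genes. The recovery and scalings were tested on simulated data.

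The members and gene lists were chosen with earlier results of these data known. Of 100 entries, members included, 82 have the fixed symbol as a symbol or synonym in the reference. All members are named, with up to 3 genes per list with the largest difference past 2-fold (or the 2 most abundant) and 12 genes that are always named. No gene is named for a like pattern, because 2 columns give each gene a single ratio: 317 other counted genes lay within 0.1 log2 of FSD1 and 810 of CSD2.

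In the search for miR398 sites a mismatch cost 1, a G:U pair 0.5 and an unpaired target base 1, doubled at miRNA bases 2 to 13. Python 3.11.15, numpy 2.4.6, pandas 2.3.3, scipy 1.17.1 and Biopython 1.88 were used. Alternatives were other pseudocounts, filters and scalings (median, TMM, quantile).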

Additional observations from a re-analysis of the deposited data

How the results depend on the processing

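FSD1 was the 1 SOD gene past 2-fold downward, and none was past it upward, under every pseudocount, filter and scaling run. FSD1, FSD2, CSD1 and CSD2 kept their direction under all of them. Median and TMM scaling shifted the log2 ratios upward by less than 0.1. With median scaling they were -0.30 for CSD1, 0.71 for CSD2 and -1.21 for FSD1, and the ratio of sums 1.10 for Cu/Zn, 0.437 for Fe and 0.800 for all SODs. With TMM scaling they were -0.28 for CSD1, 0.73 for CSD2, -1.19 for FSD1 and 0.07 for MSD1, and the ratio of sums 1.11 for Cu/Zn, 0.442 for Fe, 1.05 for Mn and 0.810 for all SODs. Counted by reads and not per length, Cu/Zn genes took 54.4% at low CO2 and 37.5% at normal CO2.

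With a pseudocount of 5, 1 gene was past 2-fold downward in copper transport and 0 among copper proteins. Upward there were 1 among plastid polymerase genes and 1 among iron genes. Over all counted genes 4.07% were then past 2-fold upward and 7.09% downward (1175 genes, against 1834 with a pseudocount of 1). Copper proteins also had 0 lower when a mean of 5 RPKM was required. The iron genes had 2 higher under that filter, where 6.28% of all counted genes were higher and 10.6% lower. Quantile normalization left 0 higher among copper proteins and put 3 peroxide removal genes at least 2-fold lower. Over all counted genes it gave 7.27% higher and 9.64% lower. Of 151 values under alternatives 128 stayed within their bounds. The cause was not tested.

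No paired analysis was possible because the table names no replicate in its columns, and for the same reason no replicate was left out. Depth limits CSD3, ARPN and BHLH101, which rest on few reads.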

Other observations

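FSD2 and FSD3 are known partners of the plastid-encoded RNA polymerase, which transcribes photosynthesis genes of the chloroplast. The list of other proteins known to associate with it held 10 counted genes, of which 2 lay past 2-fold upward at low CO2 and none downward, and its median log2 ratio was 0.52 (-0.06 over all counted genes, of which 6.07% were past 2-fold upward and 11.1% downward). FSD2 itself had a ratio of 0.705 (0.575 to 0.862). PTAC6 (AT1G21600) stood at 94.9 RPKM at low CO2 and 26.9 RPKM at normal CO2, 3.53-fold higher (3.23 to 3.86), and the fructokinase-like gene FLN1 (AT3G54090) at 13.4 RPKM at low CO2 and 5.90 RPKM at normal CO2, 2.27-fold higher (1.92 to 2.69). Of 5 leaf mesophyll markers 4 were higher at low CO2, LHCA1 and RCA only by little, and LHCB1.2 was lower. The part of these markers in the ratios above was not tested.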
